A study of Mus musculus with 10 samples.

Results

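The loci described here are 7 intervals of the mouse genome (mm9) on chromosomes 13, 2, 4, 7, 12, 14 and 9. They were selected on ratios of these same arrays, tumour DNA over non-leukemic DNA, which lay off 0 in both genotypes or on opposite sides of 0 in the 2 genotypes. They hold 592 of the 402346 array positions with a place on a chromosome, each position being a short stretch of genome read by 1 kind of oligonucleotide. The chromosome 13 locus (61000000 to 62500000) has 144 positions, the chromosome 2 locus (175000000 to 178000000) 36, the chromosome 4 locus (143000000 to 147000000) 272 and the chromosome 7 locus (7000000 to 8500000) 54. The chromosome 12 locus (24000000 to 25000000) has 4, the chromosome 14 locus (42000000 to 45000000) 37 and the chromosome 9 locus (40400000 to 40700000) 45. Since the ratios chose the loci, the ratios are given as a description and without a test.

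The samples were 10 mouse acute lymphoblastic leukemias, all of them carrying the fusion kinase BCR-ABL1. In 5 tumours 1 copy of Ikzf1, which encodes Ikaros, a transcription factor of lymphocyte development, was altered (Ikzf1+/-), and 5 were Ikzf1+/+. On every array GFP-positive leukemic bone marrow DNA carried the dye Cy5 and Cy3 marked DNA of stage-matched bone marrow without leukemia, with no dye swap, and the design text of the series speaks of B220+ B cells as the source of the normal DNA. The labels did not state whether tumours came from separate animals, whether arrays shared a non-leukemic DNA, or the genotype of that DNA.

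The mouse genome holds blocks of closely related genes that arose by repeated local duplication, among them clusters of zinc finger repressor genes, of vomeronasal receptor genes, whose products detect pheromones, of PRAME-like genes and of placental cathepsins, a group of proteases. Copy number in such blocks differs between mouse strains, and a probe there can bind several copies. In the GRCm38 gene table, chromosome 13 has 8 cathepsin genes side by side from Ctsj to Cts3, chromosome 4 has 12 PRAME-like genes side by side from Pramel20 to Pramel4, and chromosome 7 has 16 vomeronasal type 2 receptor genes side by side from Vmn2r30 to Vmn2r37. For zinc finger genes named Zfp the longest such block anywhere on the chromosome had 20 genes on chromosome 13, 15 on 7, 9 on 4 and 5 on 9. It had only 2 on chromosome 2 and 1 each on chromosomes 12 and 14. Which genes the mm9 intervals hold was not determined, so no position is assigned to a gene.

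The name of gene-cluster loci was set against 2 properties of the array. The median distance between neighbouring autosomal positions was 5.34 kb, but the chromosome 2 locus had an empty gap of 1675 kb, the chromosome 14 locus one of 1241 kb, the chromosome 4 locus one of 356 kb and the chromosome 7 locus one of 291 kb. The chromosome 7 locus had no position beyond 7840514, and the 4 positions of the chromosome 12 locus all lay between 24409724 and 24493878. The largest gap was 217 kb on chromosome 13 and 20.2 kb on chromosome 9. The second property was the Cy3 signal of non-leukemic DNA, expressed as log2 over each array's autosomal median. Positions at 1 or more on this scale, at least 2 times as bright as the autosomal median, made up 13.5% of the members (80 of 592) and 3.18% of the other autosomal positions (12133 of 381895). They were 4 of 4 on chromosome 12, 16 of 37 on chromosome 14, 7 of 36 on chromosome 2, 43 of 272 on chromosome 4, 5 of 54 on chromosome 7, 4 of 144 on chromosome 13 and 1 of 45 on chromosome 9. Chromosome 13 (2.78%) and chromosome 9 (2.22%) thus had no larger share of bright positions than the other autosomal positions. The chromosome 9 locus also had no gap beyond 20.2 kb, and it is called only by its place.

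The median Cy3 brightness over a locus, averaged over 10 arrays, was +2.19 ± 0.11 on chromosome 12, +0.70 ± 0.09 on chromosome 14 and +0.13 ± 0.01 on chromosome 4 (SD, n = 10). It was -0.14 ± 0.04 on chromosome 13 and -0.39 ± 0.10 on chromosome 9. None of the 592 positions was saturated on any array, and 575 gave a signal well above background in each channel of every array.

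Facts of the arrays that bear on every value below are these. The median background-subtracted Cy5 signal was 216 ± 9.93 on Ikzf1+/- and 120 ± 33.4 on Ikzf1+/+ arrays (SD, n = 5 each), and within the Ikzf1+/+ group it was 88.4, 93.0, 159, 107 and 153 for tumours 1 to 5. The Cy3 signal was 160 ± 8.12 and 174 ± 5.76 on Ikzf1+/- and Ikzf1+/+ arrays. Arrays lay 2 to a slide on 5 slides, and 1 slide held both genotypes, with Ikzf1+/- tumour 1 and Ikzf1+/+ tumour 5. The part of signal and slide in the differences between genotypes was not tested, except where a value below bears on it. Fewer tumour cells with a change and a smaller change in every cell cannot be told apart in such DNA.

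Averaged over positions and tumours, the loci on chromosomes 2, 4, 7 and 13 lay closer to 0 than those on chromosomes 9, 12 and 14. The chromosome 13 locus lay at +0.03, +0.09, +0.0092, +0.0036 and +0.02 in Ikzf1+/- tumours 1 to 5, against -0.0032, -0.05, -0.07, -0.04 and -0.09 in Ikzf1+/+ tumours 1 to 5, as log2 of Cy5 over Cy3. All Ikzf1+/- values were above 0 and all Ikzf1+/+ values below, so the groups did not overlap, but these sides of 0 depended on the processing. After normexp background correction 4 of 5 Ikzf1+/- tumours lay below 0 and Ikzf1+/+ tumour 1 above it, and the groups overlapped. They also overlapped after loess, with medians over positions, where 3 of 5 Ikzf1+/- tumours lay below 0, and over the 140 positions well above background on all arrays. The chromosome 9 locus was the only one of the 7 above 0 in 10 of 10 tumours, at +0.15, +0.35, +0.22, +0.18 and +0.28 in Ikzf1+/- and +0.29, +0.27, +0.20, +0.28 and +0.23 in Ikzf1+/+ tumours. Here the Ikzf1+/+ values lay within the range of the Ikzf1+/- values.

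The other 5 loci lay below 0. The chromosome 12 locus was at -0.41, -0.27, -0.36, -0.50 and -0.47 in Ikzf1+/- tumours 1 to 5, against +0.15, -0.47, -0.42, -0.07 and -0.69 in Ikzf1+/+ tumours 1 to 5. The chromosome 14 locus was at -0.15, -0.09, -0.15, -0.12 and -0.19 in Ikzf1+/-, against +0.0069, -0.25, -0.14, -0.04 and -0.29 in Ikzf1+/+ tumours. At both, Ikzf1+/+ tumours 1 and 4 lay near or above 0 while tumours 2, 3 and 5 lay among or below the Ikzf1+/- tumours. The chromosome 4 locus averaged -0.08 ± 0.01 in Ikzf1+/- and -0.07 ± 0.05 in Ikzf1+/+, the chromosome 7 locus -0.04 ± 0.01 and -0.08 ± 0.05, and the chromosome 2 locus -0.05 ± 0.01 and -0.07 ± 0.05 (SD, n = 5 each). At these 3 every tumour was below 0 and the genotypes overlapped, but this too depended on the processing. After normexp the Ikzf1+/- means were +0.0148 ± 0.0224 (chromosome 2), -0.0083 ± 0.0141 (4) and +0.0094 ± 0.0109 (7). The Ikzf1+/+ means were then -0.09 ± 0.03, -0.08 ± 0.04 and -0.09 ± 0.04 (SD, n = 5 each). With it the groups did not overlap at these loci, and most Ikzf1+/- tumours lay above 0 on chromosomes 2 and 7.

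**Figure D1:**
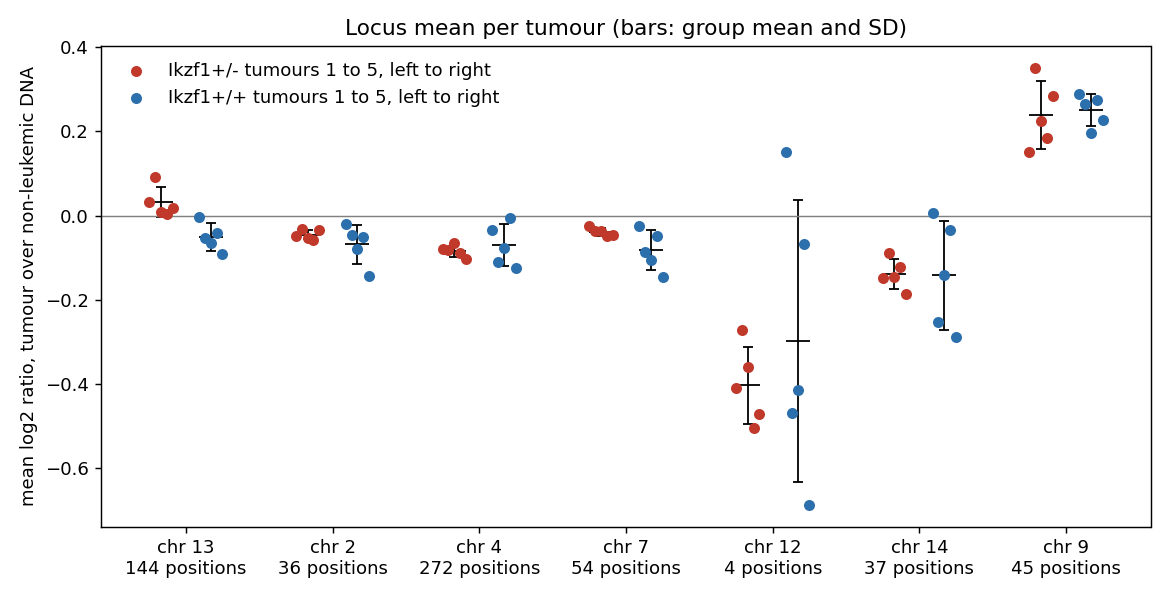
Mean log2 ratio of tumour over non-leukemic DNA over the positions of each locus (vertical axis), for Ikzf1+/- tumours 1 to 5 (red, left) and Ikzf1+/+ tumours 1 to 5 (blue, right), with the group mean and SD as bars. The chromosome 12 and 14 loci spread widely within Ikzf1+/+, from -0.69 to +0.15 on chromosome 12, and the chromosome 9 locus is above 0 in all 10 tumours.

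To see where within a locus the ratios moved, positions were grouped along each chromosome into runs of 5 neighbours, which gave 118 member runs among 76499 autosomal runs. In the counts that follow, a percentage of all runs is the share of the 76499 runs with the same property. A run was counted as shifted the same way when both genotype means lay at least 0.1 on one side of 0. Of the 118 member runs, 7 were higher in both genotypes (1.06% of all autosomal runs) and 21 were lower in both (1.53% of all runs). In 2 the Ikzf1+/- mean was above 0.1 and the Ikzf1+/+ mean below -0.1 (0.165% of all runs), and 0 were the other way round (0.139% of all runs). The other 88 fell in none of these classes. All 7 runs higher in both were on chromosome 9, where they made up 7 of 9 runs. Those lower in both were 10 of 54 on chromosome 4, 4 of 7 on chromosome 14, 2 of 29 on chromosome 13, 2 of 7 on chromosome 2, 2 of 11 on chromosome 7 and the only run on chromosome 12. Since shifted ratios chose the loci, nothing is read from these shares.

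In limma with Benjamini-Hochberg adjustment over all 76499 runs, at an adjusted p of 0.05, 2 member runs were higher in Ikzf1+/- than in Ikzf1+/+ tumours (0.0288% of all runs), both on chromosome 13, and 0 were lower (0.127% of all runs). At an unadjusted p under 0.05 in limma, 9 were higher (6.34% of all runs) and 5 lower (5.87% of all runs), shares of the 118 near those of all runs. Against non-leukemic DNA, 10 member runs were higher in the mean of both genotypes (4.66% of all runs) and 31 were lower (5.34% of all runs). The higher ones were 7 on chromosome 9 and 3 on chromosome 13, and the lower ones included 18 on chromosome 4 and 5 on chromosome 14. With no sample overlapping between genotypes, the Ikzf1+/- values were above the Ikzf1+/+ values in 6 member runs (1.32% of all runs), 4 of them on chromosome 13, and below in 1 (1.49% of all runs). For single positions these numbers were 12 of 592 (0.763% of all autosomal positions) and 11 of 592 (1.05%). The rule that chose the loci used these same contrasts, so the counts are a description.

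The opposite directions of the genotypes on chromosome 13 came from 3 neighbouring runs, from 61919751 to 62037213, a stretch of 117 kb with 15 positions. Over the stretch the ratio was +0.35, +0.79, +0.31, +0.33 and +0.65 in Ikzf1+/- tumours 1 to 5, against -0.11, -0.06, -0.10, -0.17 and -0.15 in Ikzf1+/+ tumours 1 to 5. The means were +0.49 ± 0.22 and -0.12 ± 0.04 (SD, n = 5 each), a difference of 0.61. Every Ikzf1+/- tumour lay above every Ikzf1+/+ tumour, also after normexp, which placed Ikzf1+/+ tumour 4 above 0, and the Ikzf1+/- tumours differed among themselves by more than the Ikzf1+/+ tumours did. Of the 15 single positions, 7 had groups that did not overlap, all with Ikzf1+/- above (0.763% of all autosomal positions). The stretch was picked by its high Ikzf1+/- mean, so nothing is read from this count.

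Within the stretch, the run from 61946522 to 61977110 differed most, at +0.54, +0.93, +0.57, +0.29 and +0.87 in Ikzf1+/- and -0.35, -0.07, -0.09, -0.42 and -0.29 in Ikzf1+/+ tumours. The run from 61989279 to 62037213 had the highest mean over all tumours in the locus, with +0.31, +0.90, +0.21, +0.51 and +0.75 in Ikzf1+/-, against -0.08, -0.0047, -0.07, -0.13 and -0.03 in Ikzf1+/+ tumours. In the first of these, leaving out the positions not well above background on all arrays brought the difference to 0.51 from 0.89, and normexp background correction brought it to 0.26, with overlapping groups and no longer past the adjusted threshold.

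Set apart by channel, this difference stood in Cy3, which marked the non-leukemic DNA. Over the 15 positions the Cy3 signal, as log2 over the array's autosomal median, was -0.72, -0.75, -0.72, -0.64 and -0.74 on Ikzf1+/- arrays 1 to 5, against +0.08, +0.12, +0.0072, +0.07 and +0.08 on Ikzf1+/+ arrays 1 to 5. The Cy5 signal of tumour DNA was -0.37, +0.03, -0.41, -0.31 and -0.10 on Ikzf1+/- arrays, against -0.04, +0.04, -0.11, -0.11 and -0.08 on Ikzf1+/+ arrays. The reference DNA of Ikzf1+/- arrays was thus dimmer here by 0.79, with no overlap between the groups, while the tumour DNA of Ikzf1+/- arrays was not brighter but dimmer by 0.17, with overlap. The 2 arrays on the shared slide differed like the others, with Cy3 at -0.72 for Ikzf1+/- tumour 1 and +0.08 for Ikzf1+/+ tumour 5.

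The same held before the scanner software's dye normalisation. In background-subtracted signals the Cy3 value of the stretch was -0.74 ± 0.08 on Ikzf1+/- and +0.04 ± 0.05 on Ikzf1+/+ arrays (SD, n = 5 each), and the Cy5 value was -0.29 ± 0.19 and -0.06 ± 0.07.

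The lower Cy3 signal of Ikzf1+/- arrays reached past the stretch. In 6 neighbouring runs from 61553165 to 62276118 the Cy3 signal was lower on Ikzf1+/- than on Ikzf1+/+ arrays by 0.32 to 0.92 with no overlap in any of them. The share of all autosomal runs without overlap in Cy3 was not determined, so nothing is read from that count. The run from 61553165 to 61919017 is an example in which the ratio did not show it, since Cy3 was +0.43 ± 0.03 on Ikzf1+/- and +0.76 ± 0.07 on Ikzf1+/+ arrays while Cy5 was +0.43 ± 0.13 and +0.73 ± 0.17, so that both channels were lower together. In the run from 61919751 to 61942390 Cy3 was -0.22 ± 0.06 and +0.42 ± 0.02, and Cy5 was +0.06 ± 0.18 and +0.36 ± 0.09 (SD, n = 5 each). In the next run, from 61946522, Cy3 was -1.12 ± 0.22 and -0.20 ± 0.14, but Cy5 was alike at -0.49 ± 0.14 and -0.46 ± 0.20. The next run distal of these 6, from 62284521 to 62357855, had similar Cy3 signals, -0.23 ± 0.05 and -0.24 ± 0.06.

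For scale, the difference in Cy3 signal between Ikzf1+/- and Ikzf1+/+ arrays lay between -0.14 (percentile 1) and +0.09 (percentile 99) over all 76499 autosomal runs. A difference of -0.5 or lower was found in 21 of these runs, and 3 of the 21 were the runs of this stretch. One of -0.75 or lower was found in 9 runs, 2 of them in the stretch.

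**Figure D2:**
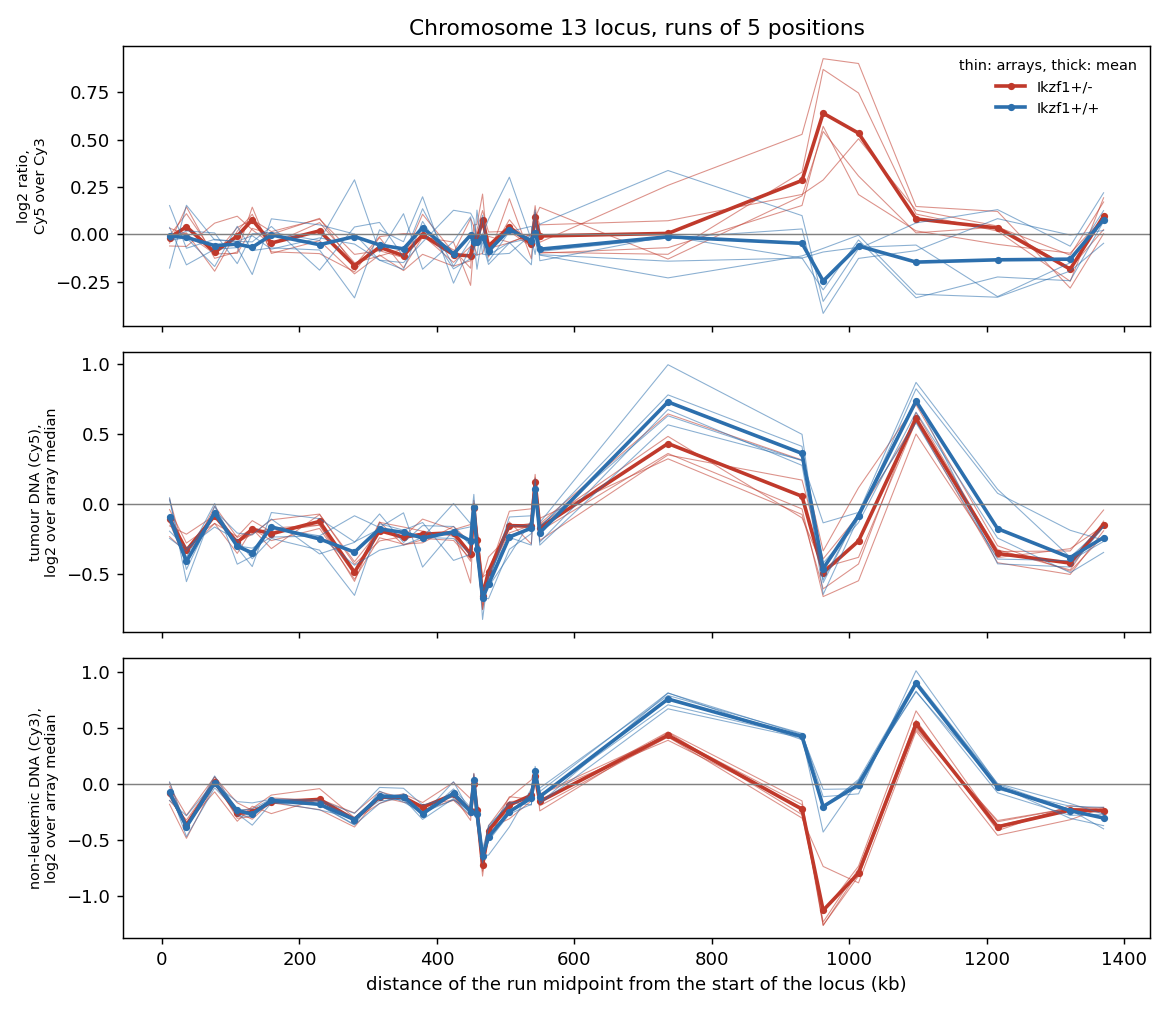
Ratio (top), Cy5 signal of tumour DNA (middle) and Cy3 signal of non-leukemic DNA (bottom) by run along the chromosome 13 locus, with distance from the locus start in kb on the horizontal axis. Thin lines are arrays and thick lines group means, Ikzf1+/- in red and Ikzf1+/+ in blue. The red Cy3 lines lie below the blue ones in 6 neighbouring runs. The share of all autosomal runs with such a separation was not determined, so nothing is read from that count. The 6 include the 3 runs of the stretch, where the red ratio stands highest, and the Cy5 lines of the run at the ratio's peak overlap.

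The proximal part of the chromosome 13 locus held most of its 144 positions and was near 0. The lowest run of the locus, from 62284521 to 62357855, averaged -0.18 ± 0.08 for Ikzf1+/- and -0.13 ± 0.10 for Ikzf1+/+ (SD, n = 5 each), the same direction in both.

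Chromosome 4 held the longest locus and differed along its length. In the first 1 Mb, 91 positions averaged -0.09 ± 0.03 in Ikzf1+/- and -0.05 ± 0.04 in Ikzf1+/+ tumours, and in the next 1 Mb 120 positions averaged -0.06 ± 0.02 and -0.03 ± 0.02. From 145000000 to 146000000 only 27 positions were placed, 18 of them bright, and the section lay at -0.11, +0.11, -0.09, -0.10 and -0.02 in Ikzf1+/- tumours 1 to 5, against +0.0086, -0.24, -0.22, -0.02 and -0.38 in Ikzf1+/+ tumours 1 to 5. From 146000000 to 147000000, where 18 of 34 positions were bright, it lay at -0.17, -0.10, -0.19, -0.22 and -0.20 in Ikzf1+/-, against -0.05, -0.27, -0.25, -0.03 and -0.36 in Ikzf1+/+ tumours. In both distal sections Ikzf1+/+ tumours 1 and 4 were the nearest to 0 of their group and tumour 5 the lowest of all 10.

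The run of lowest mean, from 146191143 to 146636678, was at -0.31, -0.26, -0.38, -0.48 and -0.38 in Ikzf1+/- tumours, against -0.01, -0.47, -0.27, -0.03 and -0.59 in Ikzf1+/+ tumours. It borders on the run in which the genotypes differed most, from 145740166 to 146146563, with -0.04, +0.37, +0.07, +0.11 and +0.22 in Ikzf1+/-, against -0.20, -0.12, -0.39, +0.02 and -0.33 in Ikzf1+/+ tumours. The groups overlapped there and the run was not called. In contrast to chromosome 13, this difference stood in the Cy5 channel, with +1.07 ± 0.14 on Ikzf1+/- and +0.70 ± 0.16 on Ikzf1+/+ arrays, while Cy3 was +0.93 ± 0.10 and +0.91 ± 0.10 (SD, n = 5 each). The run spans 406 kb with an inner gap of 169 kb, so it is a few scattered positions and not an even sample of that DNA.

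**Figure D3:**
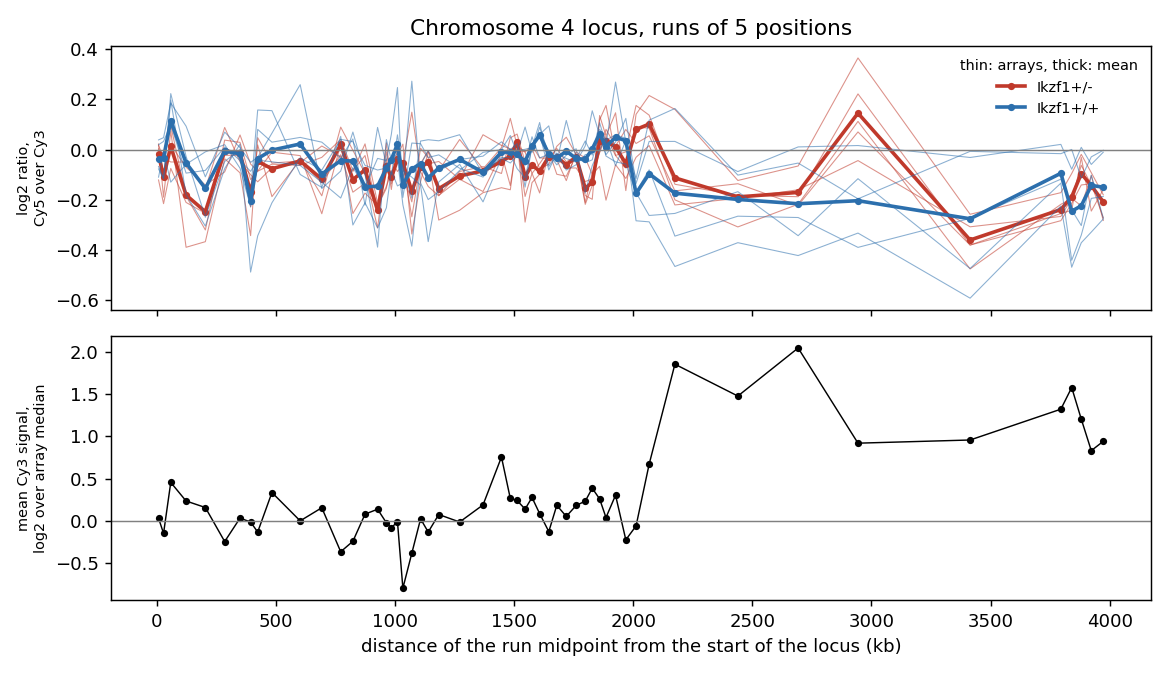
Ratio by run (top, Ikzf1+/- red, Ikzf1+/+ blue, thin lines tumours, thick lines means) and mean Cy3 signal of each run (bottom) along the chromosome 4 locus, with distance from the locus start in kb. In the distal part runs are sparse and bright, and 3 of 5 Ikzf1+/+ lines lie well below 0 while those of tumours 1 and 4 stay near it. The highest point of the Ikzf1+/- mean is the run at +0.15.

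At the other loci below 0 some of the brightest positions were low as well, but brightness and low ratios did not always go together. On chromosome 4 the run from 143164184 had a brightness of only +0.16 and a mean over both genotypes of -0.20. On chromosome 14 the run from 44294167 had a brightness of +0.04 and a mean of -0.15. The run from 42001349 had a brightness of +0.84 and a mean of -0.05. On chromosome 7 the run nearest the distal end, 7792601 to 7840514, had a mean Cy3 brightness of +1.68 and was at -0.38, -0.26, -0.36, -0.43 and -0.48 in Ikzf1+/- tumours, against +0.0078, -0.46, -0.35, -0.06 and -0.67 in Ikzf1+/+ tumours. On chromosome 2 the 4 positions of the first 1 Mb had a mean brightness of +2.40 and averaged -0.29 ± 0.04 in Ikzf1+/- and -0.17 ± 0.22 in Ikzf1+/+ tumours, while the 32 positions of the last 1 Mb had a brightness of +0.16 and averaged -0.01 ± 0.02 and -0.05 ± 0.03. The middle 1 Mb holds no position. On chromosome 14 the lowest run, 42817817 to 44275324, had a brightness of +2.71 and lay at -0.26 ± 0.05 and -0.21 ± 0.20 (SD, n = 5 each). Its positions stand on both sides of the 1241 kb gap.

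Taken over the 6 loci outside chromosome 9, the 79 bright members lay at -0.19, -0.12, -0.19, -0.24 and -0.23 in Ikzf1+/- tumours 1 to 5, against +0.03, -0.26, -0.21, -0.02 and -0.39 in Ikzf1+/+ tumours 1 to 5. The 468 dimmer members averaged -0.03 ± 0.01 in Ikzf1+/- and -0.06 ± 0.03 in Ikzf1+/+ tumours. At the dim end the trend did not hold in Ikzf1+/+: the 24 members below -1 lay at +0.05, +0.07, +0.03, +0.01 and +0.07 in Ikzf1+/- tumours 1 to 5, against +0.07, -0.29, -0.21, -0.15 and -0.29 in Ikzf1+/+ tumours 1 to 5. The 10907 autosomal positions elsewhere that were as dim averaged -0.02 ± 0.01 and -0.11 ± 0.02 (SD, n = 5 each). The 12133 bright autosomal positions elsewhere averaged -0.02 ± 0.01 and +0.0028 ± 0.02 (SD, n = 5 each). In the ratios as reported, the mean of bright positions elsewhere was thus near 0, and that of bright members was not, apart from Ikzf1+/+ tumours 1 and 4. Single bright positions elsewhere were often shifted too, since 861 of the 12133 lay below 0 in all 10 tumours and 455 above. Of the 79 bright members 16 lay below in all 10 and 0 above. The loci were chosen on their ratios, so nothing is read from these counts. The contrast of the means depended on the processing. Normexp turned the bright members positive in every Ikzf1+/- tumour, with a group mean of +0.12 ± 0.04. Their Ikzf1+/+ mean became -0.29 ± 0.16 (SD, n = 5 each). Bright positions elsewhere then had higher means, +0.31 ± 0.02 for Ikzf1+/- and -0.09 ± 0.26 for Ikzf1+/+, so they were no longer near 0 in Ikzf1+/-. Cy3 is the denominator of the ratio, so brightness and ratio are not independent, and the other autosomal positions share that dependence.

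**Figure D4:**
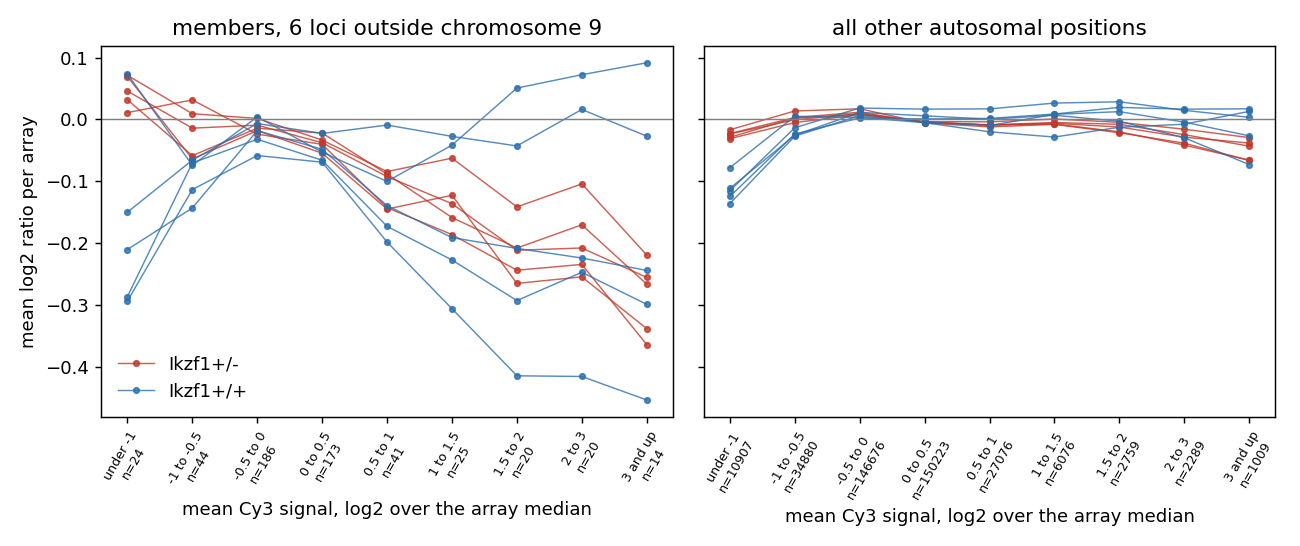
Mean log2 ratio per array (vertical axis) by mean Cy3 signal of the position (horizontal axis, log2 over the array median, n positions per bin), for members outside chromosome 9 (left) and all other autosomal positions (right). Ikzf1+/- arrays are red and Ikzf1+/+ arrays blue. The brightest members, at 3 and up, lie between -0.45 and -0.22 on 8 of 10 arrays and at +0.09 and -0.03 for Ikzf1+/+ tumours 1 and 4, and the dimmest members are also low on 4 of 5 Ikzf1+/+ arrays; elsewhere the brightest positions lie between -0.07 and +0.02.

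At the loci on chromosomes 2, 4, 7, 12 and 14 the spread between tumours lay more in Cy5 than in Cy3. The chromosome 13 locus went the other way, with an SD over 10 arrays of 0.04 in Cy5 and 0.06 in Cy3. Over its stretch of 15 positions the SD was 0.16 in Cy5 and 0.42 in Cy3. On chromosome 12 the Cy5 signal was +1.99, +2.08, +2.03, +1.73 and +1.90 on Ikzf1+/- arrays 1 to 5, against +2.38, +1.99, +1.98, +2.34 and +1.81 on Ikzf1+/+ arrays 1 to 5. The Cy3 signal was +2.40, +2.35, +2.40, +2.24 and +2.37, against +2.24, +2.47, +2.42, +2.42 and +2.51. Ikzf1+/+ tumours 1 and 4 had the 2 brightest Cy5 values, and Ikzf1+/+ tumour 1 also had the lowest Cy3 value. Over 10 arrays the SD was 0.21 in Cy5 and 0.09 in Cy3. For the bright members of the 6 loci it was 0.08 in Cy5 and 0.05 in Cy3, and for bright positions elsewhere 0.05 and 0.06.

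Within Ikzf1+/+ the order of the tumours recurred from locus to locus. Tumour 1 was the highest of the 5 Ikzf1+/+ tumours at 6 of 7 loci, chromosome 4 being the exception, and tumour 5 was the lowest of all 10 tumours at 6 of 7, with chromosome 9 the exception. Tumour 1 shared its slide with tumour 2, and tumour 4 with tumour 3. The order changed with another background correction. With normexp the chromosome 12 locus lay at -0.10, -0.01, -0.08, -0.25 and -0.13 in Ikzf1+/- tumours 1 to 5, against -0.34, -0.73, -0.29, -0.32 and -0.56 in Ikzf1+/+ tumours 1 to 5. The difference between genotypes there was then +0.33 in place of -0.11. The -0.11 also rested on single tumours, since it was +0.0063 without Ikzf1+/+ tumour 1, -0.05 without Ikzf1+/+ tumour 4 and -0.20 without Ikzf1+/+ tumour 5. After normexp bright positions outside the loci also moved, to +0.31 ± 0.02 in Ikzf1+/- and -0.09 ± 0.26 in Ikzf1+/+ tumours.

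On chromosome 9 the ratio was raised in every tumour, over mostly dim positions. The 5 neighbouring runs from 40488880 to 40622700, 134 kb with 25 positions, lay at +0.27, +0.48, +0.31, +0.27 and +0.43 in Ikzf1+/- tumours 1 to 5, against +0.39, +0.39, +0.26, +0.40 and +0.34 in Ikzf1+/+ tumours 1 to 5. The peak run, 40553988 to 40579428, was at +0.48, +0.68, +0.63, +0.61 and +0.73 in Ikzf1+/-, against +0.70, +0.64, +0.56, +0.48 and +0.55 in Ikzf1+/+ tumours. The groups overlapped, and the ratio was lower on both sides, at +0.08 ± 0.08 and +0.03 ± 0.04 in the first run of the locus. Of the 45 positions, 14 were above 0 in all 10 tumours and 0 were below 0 in all 10. At the other 6 loci 1 position was above 0 in all 10 and 32 were below in all 10. Over all 592 members these shares were 2.53% above and 5.41% below, and among other autosomal positions 0.973% and 0.990%. Of the 32, 16 were bright positions, and among the 12133 bright positions elsewhere 861 were below 0 in all 10. The ratios chose the loci, so nothing is read from these counts.

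The raised ratio on chromosome 9 stood over a low Cy3 signal. In the peak run Cy3 was -0.83, -0.75, -0.92, -0.86 and -0.77 on Ikzf1+/- arrays 1 to 5, against -0.39, -0.41, -0.47, -0.58 and -0.48 on Ikzf1+/+ arrays 1 to 5. Cy5 was -0.36, -0.07, -0.29, -0.25 and -0.04, against +0.30, +0.22, +0.06, -0.11 and +0.06. Both channels were lower on Ikzf1+/- arrays, by 0.36 in Cy3 and 0.31 in Cy5, which left the ratios of the genotypes alike. In the first run of the locus Cy3 was +0.05 ± 0.04 on Ikzf1+/- and +0.13 ± 0.06 on Ikzf1+/+ arrays (SD, n = 5 each), close to the autosomal median. The next run after the peak, 40580145 to 40599363, had the lowest Cy3 signal of the locus, -0.99 ± 0.06 on Ikzf1+/- and -0.59 ± 0.10 on Ikzf1+/+ arrays. Its Cy5 signal was -0.60 ± 0.20 and -0.32 ± 0.06.

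**Figure D5:**
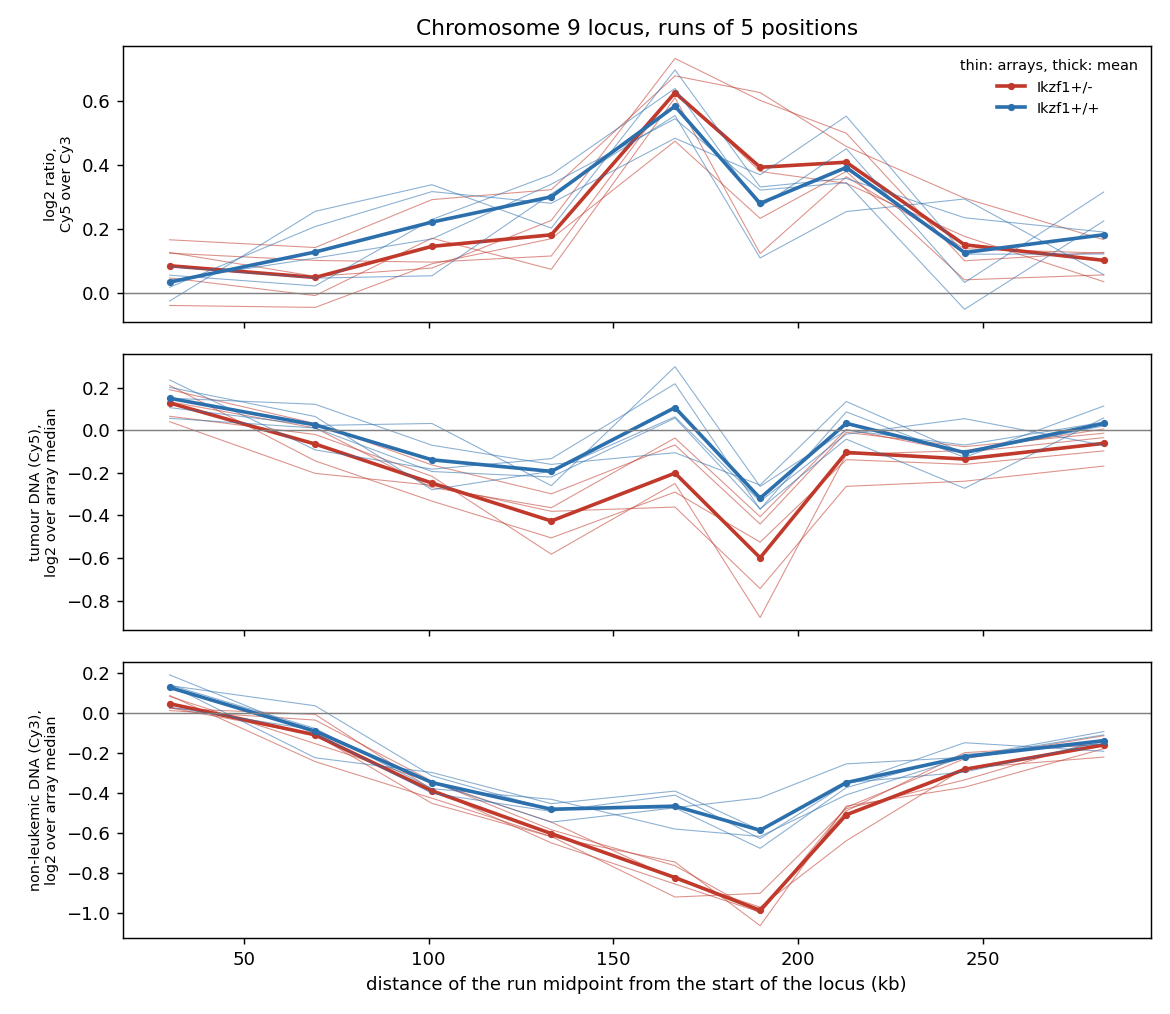
Ratio (top), Cy5 signal of tumour DNA (middle) and Cy3 signal of non-leukemic DNA (bottom) by run along the chromosome 9 locus, with distance from the locus start in kb. Thin lines are arrays and thick lines group means, Ikzf1+/- in red and Ikzf1+/+ in blue. The ratio peaks at +0.63 in Ikzf1+/- and +0.59 in Ikzf1+/+ tumours, where Cy3 is below 0 on all arrays and lower on Ikzf1+/- arrays.

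The borders of the loci were fixed in round coordinates and not at breaks in the ratios. The 5 positions just outside the proximal border of the chromosome 12 locus, 22857105 to 23554830, had ratios of -0.24 ± 0.05 for Ikzf1+/- and -0.21 ± 0.25 for Ikzf1+/+, with a brightness of +2.11, against -0.40 ± 0.09 and -0.30 ± 0.33 inside. Just beyond the distal border of the chromosome 4 locus the 5 positions from 147113260 lay at -0.11 ± 0.10 and -0.14 ± 0.20, with -0.22 ± 0.08 and -0.12 ± 0.14 in the 5 just inside. Just beyond the chromosome 9 locus they lay at +0.07 ± 0.05 and +0.15 ± 0.10, with +0.10 ± 0.05 and +0.18 ± 0.10 inside (SD, n = 5 each). On chromosome 13 the last 5 positions inside lay at +0.08 ± 0.08 and +0.06 ± 0.06, and the first 5 outside at -0.05 ± 0.08 and -0.06 ± 0.15.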

How the data were processed

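Array comparative genomic hybridisation of 10 BCR-ABL1 leukemias, 5 Ikzf1+/- and 5 Ikzf1+/+, was analysed. Groups and replicate numbers came from the labels. Per the labels' protocols, DNA was extracted with phenol and chloroform and labelled with a ULS kit. The deposited scanner files give Cy5 and Cy3 intensity as processed signals, which the scanner software subtracted for background and normalised between dyes with a lowess protocol, per the file headers. The software was Agilent Feature Extraction, 10.5.1.1 per the submitters' processing notes but 10.7.3.1 per the file headers, which place positions on mm9. The deposited log10 ratio of the scanner and the deposited log2 ratios of the series matrix had a slope of 1.00 on each other after conversion, so both are Cy5 over Cy3 and the matrix columns are not centred. Their medians were -0.0011, -0.0011, -0.00060, -0.0019 and -0.0030 for Ikzf1+/- tumours 1 to 5 and -0.010, -0.010, -0.019, -0.011 and -0.014 for Ikzf1+/+ tumours 1 to 5.

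Log2 of processed Cy5 over Cy3 was averaged over spots of one probe, without spots flagged as outliers, and centred on each array's autosomal median. Members are all probes whose mm9 position lies in the 7 intervals. Runs of 5 neighbouring autosomal positions (1 or 2 left over joined the run before) were averaged and fitted with limma 3.58.1 (lmFit, eBayes, R 4.3.3) over all 76499 runs, at a Benjamini-Hochberg adjusted p of 0.05. The fit was tested on simulated data with independent noise and no slide, dye or brightness effects. That test says nothing about such effects in these arrays. Each channel was expressed as log2 signal over the array's autosomal median. The number of arrays limits the precision.

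The members, intervals and run classes were chosen with earlier results of these data known. Named runs are, per locus, those of highest mean, lowest mean and largest absolute difference, and stretches of 2 or more runs at 0.2 or beyond in a genotype (at most 3 per locus). Other runs named were chosen after their values were seen, as was setting the 2 channels apart run by run. Alternatives were normexp (offset 50, on median spot signals, since mean signals are not among the columns used), loess, no centring, the series matrix, flagged spots kept, only probes well above background and unsaturated on all arrays, medians, runs of 10, windows of 100 kb, slide and replicate blocks, and each tumour left out. Signals before dye normalisation were added later. Same-numbered tumours of the 2 genotypes had correlations of deviations of 0.026, 0.012, -0.0099, -0.012 and 0.12, so the numbers were not taken as pairs. Genes were named only by chromosome from the GRCm38 table.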

Additional observations from a re-analysis of the deposited data

Results flagged for a closer look

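At 3 places every Ikzf1+/- tumour lay above 0 and every Ikzf1+/+ tumour below it in the ratios as reported, a difference that was not tested apart from the limma calls given with the results. They are the chromosome 13 locus as a whole (difference +0.0822, with +0.03 in Ikzf1+/- and -0.05 in Ikzf1+/+), its run from 61946522 (+0.89) and its run from 61989279 (+0.60). At none of them did these sides of 0 hold in every tumour under all 7 other ways of processing the positions. For the locus as a whole they held only with outlier spots kept. Without centring and in the series matrix Ikzf1+/- tumour 4 fell below 0. In the run from 61946522 normexp placed 2 of 5 Ikzf1+/+ tumours above 0, and the probes well above background placed 1 there. In the run from 61989279 normexp placed 1 of 5 Ikzf1+/- tumours below 0, and loess placed 1 and medians 2 of 5 Ikzf1+/+ tumours above it. The Cy3 signal of non-leukemic DNA differed between the arrays of the genotypes too, by -0.92 in the first of these runs and -0.79 in the second one, and its part in the ratios is given with the results.

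In the first run of the chromosome 2 locus, from 175003007, Ikzf1+/- tumour 3 stood apart at -0.18 from the other 4 of its genotype, which lay between -0.29 and -0.26. Chance alone flags about 1 group in 20 by this measure, and 66 groups were looked at, so nothing is read from this value.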

How the results depend on the processing

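Normexp background correction moved most values. The differences between genotypes, Ikzf1+/- minus Ikzf1+/+, became +0.0296 (chromosome 13), +0.103 (2), +0.0748 (4), +0.104 (7), +0.332 (12), +0.193 (14) and -0.0855 (9), and the chromosome 9 mean over tumours +0.17; on chromosomes 4 and 12 the sign turned. Leaving out 1 tumour gave +0.0671 to +0.0941 (13), +0.0040 to +0.0346 (2), -0.0264 to +0.0030 (4), +0.0270 to +0.0574 (7), -0.203 to +0.0063 (12), -0.0332 to +0.0408 (14) and -0.0400 to +0.0097 (9). Member runs called between genotypes, each with the share of all runs called beside it, were 2 (0.156%) as reported, 14 after normexp (2.11%), 0 with medians over probes (0.0144%), 4 with slide as a random block (0.282%), 1 in 100 kb windows (0.0213%), 2 with the replicate block (0.106%), and 1 to 2 with a tumour left out (0.0275% to 0.424%): 1 without any of Ikzf1+/- tumours 2, 4 or 5 or Ikzf1+/+ tumours 1, 4 or 5. With medians, 9 were higher (5.01% of all runs) and 5 lower (5.08%) at an unadjusted p under 0.05 in limma. Within the slide holding both genotypes, 1 tumour each, the differences were +0.125, +0.0955, +0.0456, +0.119, +0.277, +0.141 and -0.0758 in the same order of chromosomes. Member runs called against non-leukemic DNA were 27 of 54 in windows (21.0% of all windows) and 31 to 44 with a tumour left out (5.44% to 11.6%). Before dye normalisation the Cy3 brightness was +0.0760 on chromosome 2 and +0.49 on chromosome 14. The replicate block could not change a locus difference, since each replicate number holds 1 tumour of each genotype, so nothing is read from it there. Of 399 alternative values of named called runs, 368 stayed called, 31 did not and 0 changed sign. These values pool both contrasts and are mostly calls against non-leukemic DNA. They therefore say little about the calls between genotypes, whose counts are given above. The causes were not tested.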

Other observations

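Over all autosomes, 18 runs outside the 7 loci also had a Cy3 signal of non-leukemic DNA lower by 0.5 or more on Ikzf1+/- than on Ikzf1+/+ arrays. Of the 21 such runs in all, 13 lay on chromosome 11, which carries Ikzf1 in the GRCm38 gene table, 4 on chromosome 13, 2 on chromosome 12 and 1 each on chromosomes 7 and 15. Between 9955874 and 18570558 on chromosome 11 there were 9. In these 9 the Cy3 signal was lower by 0.51 to 1.04 and the Cy5 signal of tumour DNA by 0.43 to 0.90, so that the ratios of the genotypes differed by only -0.03 to +0.13. The remaining chromosome 11 runs lay between 115862667 and 121841954. There the differences, Ikzf1+/- minus Ikzf1+/+, were -1.07 to -0.65 in Cy3, -0.37 to -0.13 in Cy5 and +0.30 to +0.71 in the ratio. In the run from 11654286 to 11655522, Cy3 was -0.38 ± 0.06 on Ikzf1+/- and +0.36 ± 0.08 on Ikzf1+/+ arrays (SD, n = 5 each). The position of Ikzf1 in mm9 was not determined here. These runs were picked by their values after they were seen, and no test was made.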
